A study of Mus musculus with 4 samples.

Results

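The 8 genes described here were grouped as genes of late T cell maturation in the thymus and of exit from it. They are the Kruppel-like factors Klf2, Klf3, Klf6 and Klf13, the forkhead factor Foxo1, the sphingosine-1-phosphate receptors S1pr1 and S1pr4, and the chemokine receptor Ccr7. They were chosen by symbol, as every probe set that the platform annotation assigned to 1 of these symbols and to no other gene. This gave 23 probe sets for the 8 genes, of 34945 such probe sets for 18193 genes in all, and 0 probe sets were shared between a member and another symbol. The values come from 4 single-colour arrays of CD4 single-positive thymocytes sorted from mice on the B6 background. The 2 KO arrays are from CD4 Cre+ Cul3fl/fl mice and the 2 LM arrays from CD4 Cre- Cul3fl/fl mice, so both groups carry the floxed Cul3 gene and only the KO group carries the Cre transgene. Cells binding CD25 antibody, the CD1d-PBS57 tetramer or antibody to the gamma delta T cell receptor had been sorted out, per the labels. The Cd4 promoter of the transgene drives Cre from the double-positive stage on, before the cells sampled here arise. The sources used here do not give age, sex or whether animals were pooled. No group with Cre but without floxed Cul3 was analysed here, so Cre itself and the loss of Cul3 cannot be told apart.

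Thymocytes that have passed selection move to the medulla under the guidance of CCR7, mature there for some days, and then leave through vessels at the edge between cortex and medulla. Exit needs S1PR1, a G protein-coupled receptor that senses the high level of sphingosine-1-phosphate (S1P) in blood. In mouse T cells KLF2 binds the S1pr1 gene and is needed for its expression, and FOXO1 in turn is needed for normal expression of Klf2, Ccr7 and other homing genes. CD69, made after receptor stimulation, binds S1PR1 and draws it into the cell, which holds recently selected cells back.

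Each value is a probe set's deposited signal, a linear fluorescence intensity scaled so that every array had a trimmed mean of 500.0. Differences are KO minus LM on quantile normalized log2(signal + 16), where a difference of -1 is a halving. They were tested with limma over all genes, with Benjamini-Hochberg adjustment over the 11255 genes tested, and each gene was represented by its brightest probe set. The background level was set on each array after normalization, at the 95th percentile of 80 odorant and pheromone receptor probe sets. Turned back from the log2 scale, it was 98.4 and 77.7 on KO replicates 1 and 2. On LM replicates 1 and 2 it was 106 and 92.3. In deposited signals the same percentile was 97.4 and 83.4 on the KO arrays and 108.7 and 85.2 on the LM arrays. Genes were compared with background on the normalized scale. The labels do not say that replicates came from separate mice, so the p-values rest on a spread that may be technical. The targeted gene gave no independent check of the labels. Cul3, by its brightest probe set, read 5380.2 and 5577.3 on the arrays labelled KO, against 5332.9 and 5724.4 on the LM arrays, and the sources used here do not say where it lies relative to the deleted exons. Every direction below is therefore that of the arrays labelled KO.

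All 8 genes were above background on all 4 arrays and all were tested. Of the 8, 7 read lower on the arrays labelled KO, where 49.7% of all genes did, and Klf6 read higher, and none passed the threshold of 0.05, with limma adjusted p-values of 0.287 to 0.828. Among all genes tested 0.275% passed, 16 lower and 15 higher. At an unadjusted p under 0.05, 3 members (Klf2, Klf3 and S1pr4) were lower and none was higher, where 8.4% of all genes reached that level, 4.17% of all genes on the lower side. Both KO arrays lay below both LM arrays for 5 of the 8, against 18.3% of all genes tested. Both lay above for 1 of the 8, against 19.1%. The median difference was -0.36 over the 8 and 0.00 over all genes tested. The 8 were picked with earlier results of these data known, so these counts describe them and are not a test of the group. With 2 arrays a group, an exact two-sided permutation test of any single gene cannot go below p = 0.333.

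**Figure D1:**
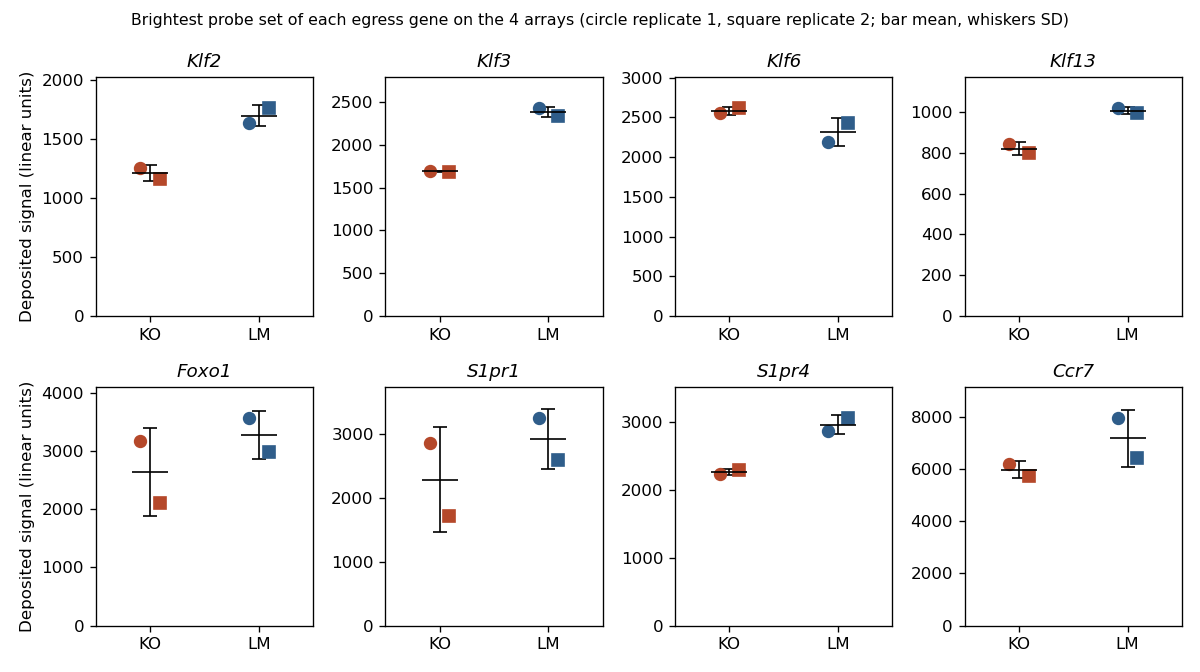
Deposited signal (linear units, y axis from 0) of the brightest probe set of each of the 8 genes on the 2 KO arrays (left) and the 2 LM arrays (right) of each panel; circles are replicate 1, squares replicate 2, bars means and whiskers SD. Klf2, Klf3, Klf13, S1pr4 and Ccr7 have both KO points below both LM points, Klf6 has them above, and Foxo1 and S1pr1 overlap.

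Klf2, the zinc finger factor that in mice is needed for thymic exit and for the quiescence of naive T cells, has 1 probe set, 1448890_at. It read 1258.9 and 1160.8 on the arrays labelled KO, against 1635.6 and 1761.1 on the LM arrays. The groups did not overlap, and the gap between the nearest arrays of the 2 groups was larger than the gap within either group. On the log2 scale the means were 10.26 ± 0.07 for KO and 10.74 ± 0.06 for LM (SD, n = 2 each), a difference of -0.48 ± 0.16 (SE) with a limma adjusted p of 0.393. That puts the KO signal at 71.9% of the LM signal, with a 95% interval of 56.6% to 91.3%. Among all genes tested, 6.25% differed by more in the same direction. Leaving out any 1 array kept the difference between -0.53 and -0.43. In these bulk samples, fewer cells of a type and less RNA per cell cannot be told apart, for Klf2 and for every gene below.

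Klf3, a repressor of the same family that binds the CACCC boxes KLF2 also recognises, has 7 probe sets. The brightest, 1421604_a_at, read 1695.1 and 1681.5 on the arrays labelled KO, against 2426.4 and 2339.0 on the LM arrays. Its log2 means were 10.74 ± 0.00 for KO and 11.23 ± 0.06 for LM (SD, n = 2 each). The difference was -0.49 ± 0.14 (SE, limma adjusted p = 0.287), or 71.2% of the LM signal with a 95% interval of 57.6% to 88.0%. This adjusted p was the smallest among the 8 genes. The other 5 tested probe sets of Klf3 also read lower on the arrays labelled KO. When every probe set was tested on its own, over 21795 probe sets, 1454666_at had the largest difference among them. It read 502.3 and 456.8 on the arrays labelled KO, against 987.8 and 767.9 on the LM arrays, a difference of -0.84 ± 0.21 (SE, limma adjusted p = 0.195). Probe set 1429360_at read 687.9 and 475.2 on the arrays labelled KO, against 1083.2 and 938.1 on the LM arrays, a difference of -0.79 ± 0.22 (SE, adjusted p = 0.283). Probe sets 1431630_a_at, 1441200_at and 1442920_at differed by -0.56, -0.64 and -0.37. The last of the 7, 1458487_at, was below background on all 4 arrays and was not tested. Both KO arrays lay below both LM arrays for all 6 tested probe sets of Klf3 after normalization, by as little as 0.00 for 1442920_at, which overlapped in the deposited signals. The 6 read the same transcripts in the same 4 samples and are not independent measurements. Leaving out KO replicate 1 brought 1429360_at past the threshold, at -1.06 with an adjusted p of 0.0209, and over all alternatives its adjusted p was 0.0209 to 0.572.

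Klf6, an activator widely induced by stress and stimulation, was the only member above its LM level. Its brightest probe set, 1418280_at, read 2550.6 and 2614.9 on the arrays labelled KO, against 2187.0 and 2436.3 on the LM arrays, a difference of 0.17 ± 0.13 (SE, limma adjusted p = 0.828). The groups did not overlap, but the nearest arrays were 0.08 apart on the log2 scale, less than the gap of 0.12 between the LM arrays. The 95% interval ran from 92.0% to 137% of the LM signal. A dimmer probe set, 1427742_a_at, read 278.1 and 367.0 on the arrays labelled KO, against 233.5 and 140.5 on the LM arrays, a difference of 0.74 ± 0.30 (SE, adjusted p = 0.543 over all probe sets). Probe sets 1433508_at and 1447448_s_at differed by 0.21 and 0.10 with overlapping groups. The dimmest, 1459718_x_at, was above background on 1 array of each group and differed by -0.02, or by 0.01 with median centring and 0.06 without normalization. The suffixes _s_at and _x_at mark probe sets whose probes can match more than 1 transcript.

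Klf13, which in T cells activates the chemokine gene Ccl5 late after stimulation, has 3 probe sets that differed in sign. The brightest, 1436316_at, read 843.6 and 797.7 on the arrays labelled KO, against 1017.8 and 993.7 on the LM arrays. The groups did not overlap, and the difference was -0.28 ± 0.18 (SE, limma adjusted p = 0.767). Probe set 1432543_a_at differed by -0.14, with readings of 352.3 and 505.9 on the arrays labelled KO and 536.8 and 408.0 on the LM arrays. Probe set 1456030_at differed by 0.07, with readings of 157.8 and 150.5 on the arrays labelled KO and 147.6 and 132.6 on the LM arrays. Averaged over its 3 probe sets, Klf13 differed by -0.12.

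Of 13 other Kruppel-like factors, 12 had a probe set of their own and 6 were tested; 0 passed the threshold in either direction. Their median difference was -0.12, with 4 lower and 2 higher. Klf10, a factor induced by transforming growth factor beta, differed by -0.31 ± 0.15 (SE, limma adjusted p = 0.645), with 1456.1 and 1515.4 on the arrays labelled KO and 1750.6 and 1960.0 on the LM arrays. Klf16 differed by 0.53 and Klf11 by -0.18, or by 0.015 without KO replicate 1. Among regulators of Klf2 (the ERK5 and MEF2 route that induces it, and deacetylases, acetyltransferases and ubiquitin ligases linked to it), 15 of 16 genes were tested and 0 passed, with a median of -0.05. Mapk7, which encodes ERK5, differed by 0.55 ± 0.27 (SE, adjusted p = 0.639). Wwp1, a ubiquitin ligase reported to act on KLF2, differed by -0.24, and the ERK5 pathway kinase Map3k2 by 0.24. With 1 array left out, Mapk7 ran from 0.26 to 0.85, Map3k2 from 0.07 to 0.41, Wwp1 from -0.34 to -0.14 and Klf16 from 0.29 to 0.76.

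The upstream sequences of 3 of these factors are shown because Klf2 and Klf3 had the lowest differences of the 8 and Klf6 the only positive one. Sequences of 250 bases before the annotated gene start were taken from RefSeq (GRCm38.p6), where 6 of the 8 members had an entry. The window of Klf2 lies at chr8:72318812-72319061, that of Klf3 at chr5:64803271-64803520 and that of Klf6 at chr13:5861239-5861488, all on the + strand. Capitals mark, on either strand, CACCC (the box bound by Kruppel-like factors), GTAAACA (a forkhead site) and TAAATTTA (an A/T-rich core bound by MEF2 factors, which reads the same on both strands). No match of one motif overlapped a match of another.
Klf2: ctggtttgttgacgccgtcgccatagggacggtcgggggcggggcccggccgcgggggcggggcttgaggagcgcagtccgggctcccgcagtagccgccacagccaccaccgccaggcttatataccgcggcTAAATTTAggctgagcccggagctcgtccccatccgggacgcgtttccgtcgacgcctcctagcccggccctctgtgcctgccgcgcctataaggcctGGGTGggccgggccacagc
Klf3: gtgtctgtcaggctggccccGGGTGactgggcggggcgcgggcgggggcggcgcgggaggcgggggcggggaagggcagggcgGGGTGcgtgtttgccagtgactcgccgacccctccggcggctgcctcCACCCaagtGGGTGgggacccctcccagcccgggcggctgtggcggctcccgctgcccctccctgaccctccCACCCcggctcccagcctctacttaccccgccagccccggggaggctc
Klf6: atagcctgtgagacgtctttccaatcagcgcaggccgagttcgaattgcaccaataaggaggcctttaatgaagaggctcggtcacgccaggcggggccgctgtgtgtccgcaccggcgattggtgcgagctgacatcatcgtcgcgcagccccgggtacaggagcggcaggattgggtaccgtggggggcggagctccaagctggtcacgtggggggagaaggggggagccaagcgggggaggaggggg
The Klf2 window holds 1 TAAATTTA, which starts 117 bases before the gene start, and 1 CACCC on the opposite strand. The Klf3 window holds 5 CACCC matches, 2 on the printed strand and 3 on the other, and the Klf6 window holds 0 matches of any of the 3 motifs. Klf13 and S1pr4 hold 1 CACCC match each and Foxo1 holds 0. Of the 32851 windows of this length, 52% hold CACCC, 3.17% GTAAACA and 0.502% TAAATTTA. The number of CACCC matches per window had a mean of 0.833 and a median of 1. A match is a run of letters and no evidence of binding in these cells.

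**Figure D2:**
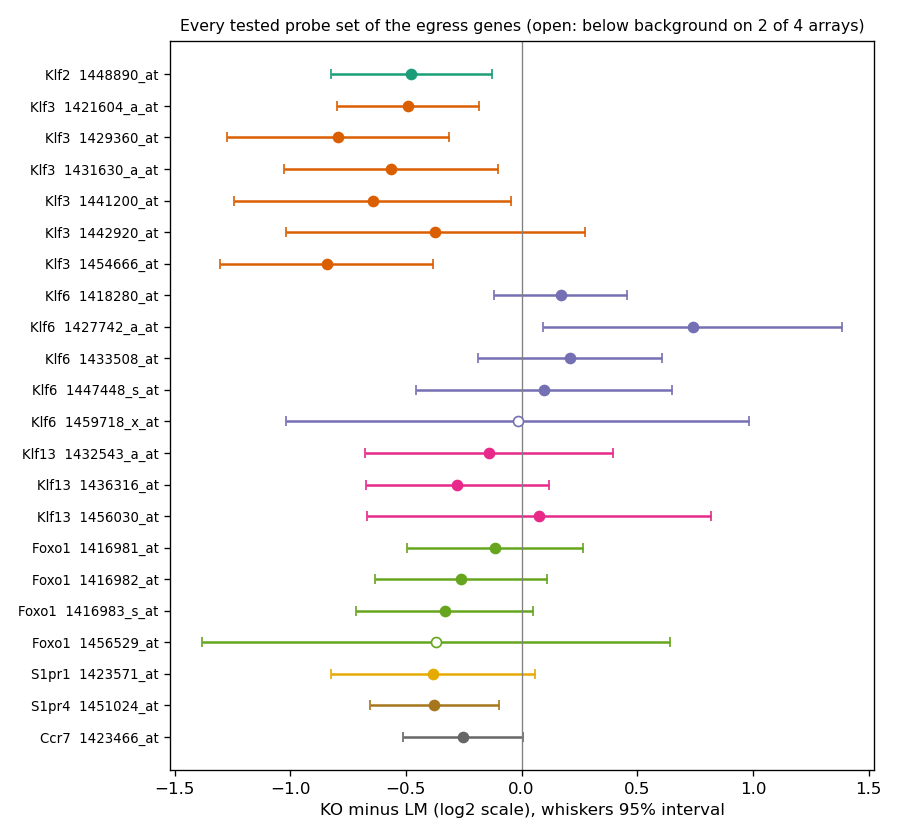
KO minus LM difference on the log2 scale (x axis) with its 95% interval for each of the 22 tested probe sets of the 8 genes, coloured by gene; open points were below background on 2 of the 4 arrays. The 6 Klf3 probe sets run from -0.84 to -0.37, those of Klf6 from -0.02 to 0.74, and the intervals of Klf2 and S1pr4 lie below 0 while those of Klf13, Foxo1, S1pr1 and Ccr7 include it.

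Taken by probe set, 22 of the 23 were tested, 17 read lower (against 50.8% of all probe sets) and 5 higher on the arrays labelled KO, and 0 passed the threshold in limma, against 0.229% of all probe sets tested. At an unadjusted p under 0.05 there were 8 of the 22, against 7.97% of all probe sets, and 7 of the 8 were lower, against 3.99%. Of those 7, 5 belong to Klf3, 1 to Klf2 and 1 to S1pr4, and the higher one is Klf6 1427742_a_at. Both KO arrays lay below both LM arrays for 10 of the 22, against 18.5% of all probe sets. They lay above for 2 of the 22, against 18.3%.

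Foxo1, the forkhead factor that keeps naive T cells in their homing state and is shut out of the nucleus by AKT, has 4 probe sets, all lower on average on the arrays labelled KO and all with overlapping groups. The brightest, 1416983_s_at, read 3174.0 and 2100.3 on the arrays labelled KO, against 3564.7 and 2986.1 on the LM arrays. KO replicate 1 lay between the LM arrays and KO replicate 2 stood below all others. The difference was -0.33 ± 0.18 (SE, limma adjusted p = 0.703), or 79.4% of the LM signal with a 95% interval of 60.4% to 104%. It was -0.62 without KO replicate 1 and -0.04 without KO replicate 2, and -0.17 without LM replicate 1, so its size rests on single arrays. Probe sets 1416982_at and 1416981_at differed by -0.26 and -0.12, and 1416981_at by 0.15 without KO replicate 2. The dimmest, 1456529_at, was above background on only 1 array of each group and differed by -0.37.

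Other genes of the FOXO route held no called member. Among the other FOXO factors and genes of the PI3K and AKT route that act on FOXO proteins, 15 of 18 genes were tested, 0 passed and the median difference was 0.01. Pik3cg, a catalytic subunit of PI3K, differed by 0.24 ± 0.16 (SE, limma adjusted p = 0.792), with 0.12 to 0.36 when 1 array was left out, Akt1 by -0.28 and the PI3K inhibitor Pik3ip1 by 0.24, or -0.07 without KO replicate 2. Of 15 genes linked to FOXO factors in T cells, 13 were tested and 0 passed, with 10 higher, 3 lower and a median of 0.08. The autophagy gene Gabarapl1 had the smallest p among them and read 296.2 and 399.0 on the arrays labelled KO, against 117.7 and 130.0 on the LM arrays. Its difference was 1.34 ± 0.30 (SE, adjusted p = 0.121), and it passed with median centring at 1.32 (adjusted p = 0.0395), with a range of 0.0395 to 0.493 over the alternatives. Sesn1, a stress-induced inhibitor of mTORC1 signalling, differed by -0.40 and the inhibitory receptor Btla by -0.19. The interleukin-7 receptor gene Il7r, a direct FOXO1 target singled out after its values were seen, read 9764.6 and 9322.4 on the arrays labelled KO and 8861.9 and 9600.2 on the LM arrays, a difference of 0.04.

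S1pr1, the egress receptor itself, has 1 probe set, 1423571_at. It read 2858.1 and 1707.0 on the arrays labelled KO, against 3245.6 and 2587.1 on the LM arrays. The groups overlapped, with KO replicate 1 above LM replicate 2. The difference was -0.38 ± 0.21 (SE, limma adjusted p = 0.703), or 76.6% of the LM signal with a 95% interval of 55.9% to 105%. It was -0.74 without KO replicate 1, where it passed among all probe sets (adjusted p = 0.0344) but not among all genes (adjusted p = 0.111). Over the alternatives the adjusted p among all genes was 0.111 to 0.998. Without KO replicate 2 it was -0.02, and without LM replicate 1 it was -0.20. A drop to below 55.9% of the LM signal lies outside the interval, and smaller drops do not.

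S1pr4, a receptor for the same lipid found mainly on lymphoid and blood cells, showed a similar average difference with little spread. Probe set 1451024_at read 2226.1 and 2286.0 on the arrays labelled KO, against 2859.9 and 3056.3 on the LM arrays, and the groups did not overlap. The log2 means were 11.15 ± 0.03 for KO and 11.53 ± 0.03 for LM (SD, n = 2 each). The difference was -0.38 ± 0.13 (SE, limma adjusted p = 0.400), or 77.0% of the LM signal with a 95% interval of 63.4% to 93.4%. Leaving out any 1 array kept it between -0.40 and -0.35.

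The remaining S1P genes held no called member. Of 17 other S1P receptors, enzymes and transporters, all had a probe set and 11 were tested, with 7 higher, 4 lower, 0 past the threshold and a median difference of 0.15. S1pr3, S1pr5 and the kinase Sphk1, named for completeness after their values were seen, were below background on all 4 arrays. S1pr2 read 183.9 and 234.5 on the arrays labelled KO and 165.0 and 128.9 on the LM arrays, a difference of 0.43. The ceramidase Asah2 and the S1P transporter Mfsd2b had the smallest p-values, at -0.88 ± 0.42 and -0.77 ± 0.43 (SE, limma adjusted p = 0.627 and 0.703), and each was above background on only 1 of the KO arrays. Sphk2, which makes S1P, differed by 0.35. With 1 array left out, Asah2 ran from -1.38 to -0.38, Mfsd2b from -1.21 to -0.33 and Sphk2 from 0.14 to 0.57.

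A further list held genes that act on the surface level or the signalling of S1P and chemokine receptors. Of 24 listed, 22 were tested, 10 higher and 12 lower, with 0 past the threshold and a median of -0.03. Rgs1, which had the smallest p among them and shortens G protein signalling from chemokine and S1P receptors, read 790.5 and 734.7 on the arrays labelled KO, against 367.1 and 367.6 on the LM arrays. Its difference was 1.03 ± 0.21 (SE, limma adjusted p = 0.0793), and over its alternatives it passed without normalization (adjusted p = 0.0474), with median centring (0.0357), with probe set means (0.0418) and without LM replicate 2 (0.0489), within a range of 0.0357 to 0.343. Rgs2, of the same family, read 2078.7 and 1813.1 on the arrays labelled KO, against 1185.5 and 1336.2 on the LM arrays, a difference of 0.62 ± 0.16 (SE, adjusted p = 0.202). Coro1a, an actin regulator needed for exit from the mouse thymus, differed by -0.19 ± 0.06 (SE, adjusted p = 0.369). Cd69 read 3642.9 and 6093.1 on the arrays labelled KO, against 2934.0 and 3588.5 on the LM arrays. Its difference was 0.56 ± 0.20 (SE, adjusted p = 0.427). It was 0.95 without KO replicate 1 and 0.67 without LM replicate 2, and it passed in both of these fits, each with a lone array in a group. Without KO replicate 2 it was 0.16 and did not pass, so its size and its call rest on single arrays. The KO arrays of Cd69 lay at 11.82 and 12.61 on the log2 scale.

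Ccr7, the receptor for the medullary chemokines CCL19 and CCL21, has 1 probe set, 1423466_at. It read 6206.8 and 5734.8 on the arrays labelled KO, against 7952.4 and 6404.5 on the LM arrays. LM replicate 1 stood above the other 3 arrays, and LM replicate 2 lay just above KO replicate 1, 0.01 apart on the log2 scale. The difference was -0.25 ± 0.12 (SE, limma adjusted p = 0.639), or 83.9% of the LM signal with a 95% interval of 69.6% to 101%. Without LM replicate 2 it was -0.47 and passed (adjusted p = 0.0174), and without LM replicate 1 it was -0.04, with adjusted p-values of 0.0174 to 0.999 over the alternatives. That was the only call among 112 refits of the 8 genes, and in that fit limma took an infinite prior, so the gene's own spread did not count.

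Other homing receptors went in both directions. Of 15 listed, 14 were tested, 7 higher and 7 lower, with 0 past the threshold and a median of 0.02. Ccr4, a chemokine receptor of medullary thymocytes, read 2771.5 and 2386.1 on the arrays labelled KO, against 1573.7 and 1854.2 on the LM arrays, a difference of 0.59 ± 0.15 (SE, limma adjusted p = 0.202). The hyaluronan receptor Cd44 differed by 0.89 ± 0.24 (SE, adjusted p = 0.262). Without LM replicate 2, where the prior was infinite, Ccr4 (0.70) and Cd44 (1.20) passed. Itgb7, an integrin chain whose expression depends on KLF2 in mouse T cells, differed by -0.27 ± 0.11 (SE, adjusted p = 0.547).

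**Figure D3:**
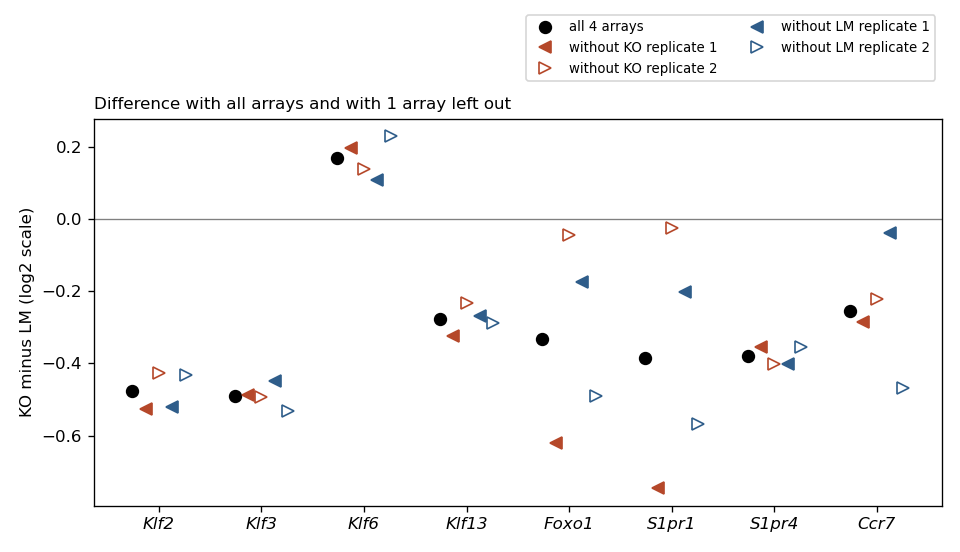
KO minus LM difference on the log2 scale (y axis) of the 8 genes with all 4 arrays (black) and with 1 array left out (triangles). Klf2, Klf3, Klf13, S1pr4 and Klf6 stay within narrow bands, while S1pr1 runs from -0.74 to -0.02, Foxo1 from -0.62 to -0.04 and Ccr7 from -0.47 to -0.04.

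The spread between replicates divided the 8 genes. The pooled replicate SD was 0.03 to 0.07 on the log2 scale for Klf2, Klf3, Klf6, Klf13 and S1pr4. It was 0.22 for Ccr7, 0.33 for Foxo1 and 0.40 for S1pr1. Foxo1 and S1pr1 were higher on replicate 1 than on replicate 2 in both groups, by 0.58 and 0.72 between the KO arrays and by 0.32 and 0.37 between the LM arrays. The Gapdh control's ratio of 3' to 5' signal, which rises with shorter RNA or copies, was 2.59 and 2.70 on KO replicates 1 and 2 and 2.63 and 2.93 on LM replicates 1 and 2. The same ratio for the beta-actin control was 0.89 and 0.99 on KO replicates 1 and 2 and 0.91 and 0.96 on LM replicates 1 and 2. The part of RNA or copy length in the replicate gaps of Foxo1 and S1pr1 was not tested.

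**Figure D4:**
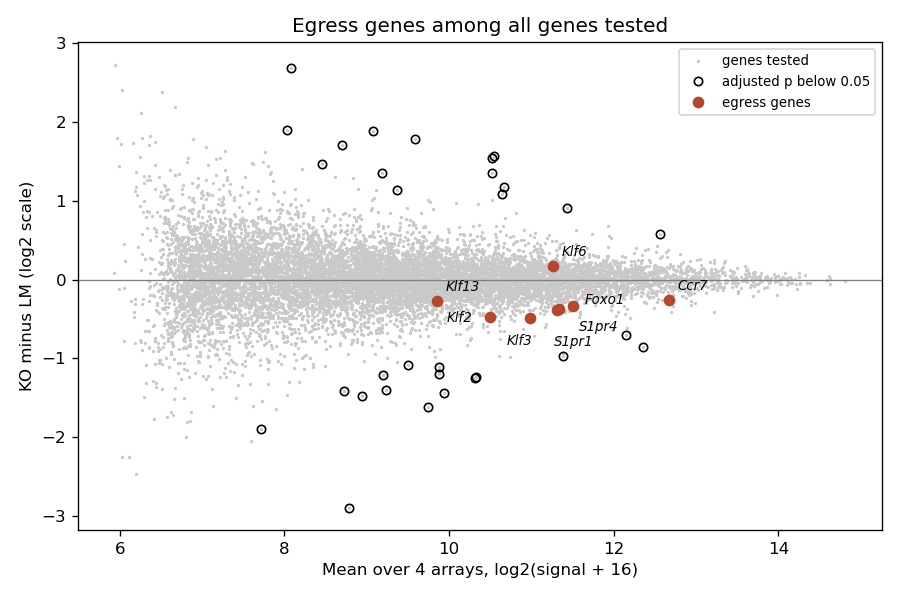
KO minus LM difference (y axis, log2 scale) against mean level over the 4 arrays (x axis, log2(signal + 16)) for the 11255 genes tested (grey), the 31 past the threshold (open circles) and the 8 egress genes (filled). Klf6 lies above 0, the other 7 lie between -0.49 and -0.25, and none of the 8 is circled.

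Genes of early and late single-positive stages were read beside the 8, and the part of cell stage in their readings was not tested. Of 18 mature-stage genes outside the 8, 15 were tested, 11 lower and 4 higher, with a median difference of -0.21. Cd55, the complement decay-accelerating factor, fell to 167.6 and 131.2 on the arrays labelled KO, against 1402.0 and 1008.5 on the LM arrays (-2.90 ± 0.25, limma adjusted p = 0.000895), and was the only one called. The interferon-induced gene Ifit3 differed by -0.66 ± 0.16 (SE, adjusted p = 0.190), or -0.81 without LM replicate 2, where it passed, and the schlafen gene Slfn1 by -0.33 ± 0.08 (SE, adjusted p = 0.202). Of 19 genes of recently selected thymocytes, all were tested, 12 were higher and 7 lower, 0 passed and the median was 0.07. The nuclear receptor Nr4a2 differed by 0.87 ± 0.27 (SE, adjusted p = 0.329) and the immediate-early factor Egr1 by -0.29 ± 0.10 (SE, adjusted p = 0.394).

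Cell cycle genes had the largest median difference of the lists given here. Of 23 listed, 21 were tested, and for each the mean of the arrays labelled KO was below the LM mean, though single KO arrays of Aurka and Mcm3 were not. Of these, 7 fell and the median difference was -0.82. The summed signal of the list was 20946 and 21817 on the arrays labelled KO, against 34495 and 36374 on the LM arrays. Mki67, the proliferation marker, fell by 0.86 ± 0.10 and Top2a, the replication topoisomerase, fell by 1.44 ± 0.18 (SE, limma adjusted p = 0.00285 and 0.00468). Kif11, Ube2c, Cenpe, Ccna2 and Cenpf, which act in mitosis or S phase, fell as well, with differences of -1.25, -1.23, -1.41, -1.11 and -1.21 (limma adjusted p = 0.00840 to 0.0303). Without the intensity trend, and without the filter on dim genes, none of these 7 nor Cd55 passed. With the mean of all probe sets in place of the brightest, Top2a differed by -0.22 (adjusted p = 0.863), Cenpe by -0.90 (0.196), Cenpf by -0.76 (0.405) and Ccna2 by -0.92 (0.0744), and none of these 4 passed. Ccna2 also did not pass without KO replicate 2 (adjusted p = 0.0627), nor Cenpf without KO replicate 1 (adjusted p = 0.0505). The part of cycling cells in the lower Klf2, Klf3 and S1pr4 readings was not tested.

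Markers of regulatory T cells were also unequal between the groups. All 12 were tested and above background on all 4 arrays. Of these, 11 were higher on the arrays labelled KO, where 49.7% of all genes read lower, and the median was 0.30. Izumo1r, a folate receptor family member of these cells, rose by 0.58 ± 0.09 (SE, limma adjusted p = 0.0213). It read 7706 and 7090.6 on the arrays labelled KO, against 4859.1 and 5022.2 on the LM arrays. Foxp3, the lineage factor of regulatory T cells, differed by 0.48 ± 0.34 (SE, adjusted p = 0.804). Its groups overlapped, at 794.3 and 362.9 on the arrays labelled KO and 498.7 and 288.5 on the LM arrays. Gpr83 was the marker that read lower, with a difference of -0.21. The list's summed signal was 22329 and 19863 on the arrays labelled KO, against 15954 and 16619 on the LM arrays. Izumo1r was the brightest marker of the list on every array and so the largest part of each sum. The part of the listed markers' cells in the readings of the 8 genes was not tested. Of 8 markers of CD4 T cells, 6 had a probe set, and all 6 were above background on all 4 arrays, with a median of -0.01. Cd4 itself read 7168.5 and 7232.5 on the arrays labelled KO and 7741.9 and 8152.8 on the LM arrays. Of markers with a probe set, 4 of 6 for B cells, 4 of 12 for myeloid and dendritic cells, 7 of 11 for stroma and 3 of 4 for erythroid cells were below background on all 4 arrays, among them Ms4a1, Pax5, Cd14, Itgax, Krt5, Col3a1 and Hba-a1. Other markers of these lists were above background on all 4 arrays. They were Ighm for B cells, Cd74 and Fcgr3 for myeloid cells, and Epcam and Pecam1 for stroma. Ighm read 624.9 and 201.4 on the arrays labelled KO, against 586.6 and 517.6 on the LM arrays. Cd74 read 355.4 and 679.1 on the arrays labelled KO, against 287.8 and 341.6 on the LM arrays. The summed signal of the B cell list was 449 to 844.4 on the arrays labelled KO and 729.3 to 815.3 on the LM arrays. That of the myeloid list was 1115.4 to 1434.6 on the arrays labelled KO and 1084.6 to 1228.3 on the LM arrays. Double-positive stage markers, 6 of 8 tested with 0 called, summed to 6862.7 and 6897.5 on the arrays labelled KO and 5675.7 and 7247.8 on the LM arrays. CD8 lineage markers, 4 of 5 tested with 0 called, summed to 2734.6 and 2425.5 on the arrays labelled KO and 2354.2 and 2441.1 on the LM arrays. Cd8a and Cd8b1 were above background on all 4 arrays, at 624.7 to 926.3 and 479.1 to 628.8 on the arrays labelled KO and at 702.5 to 756.2 and 390.2 to 457.7 on the LM arrays. Of 5 NKT and gamma delta T cell markers with a probe set, 3 were above background on all 4 arrays, with summed signals of the list at 919.2 to 1151.2 on the arrays labelled KO and 1077.6 to 1151.5 on the LM arrays.

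**Figure D5:**
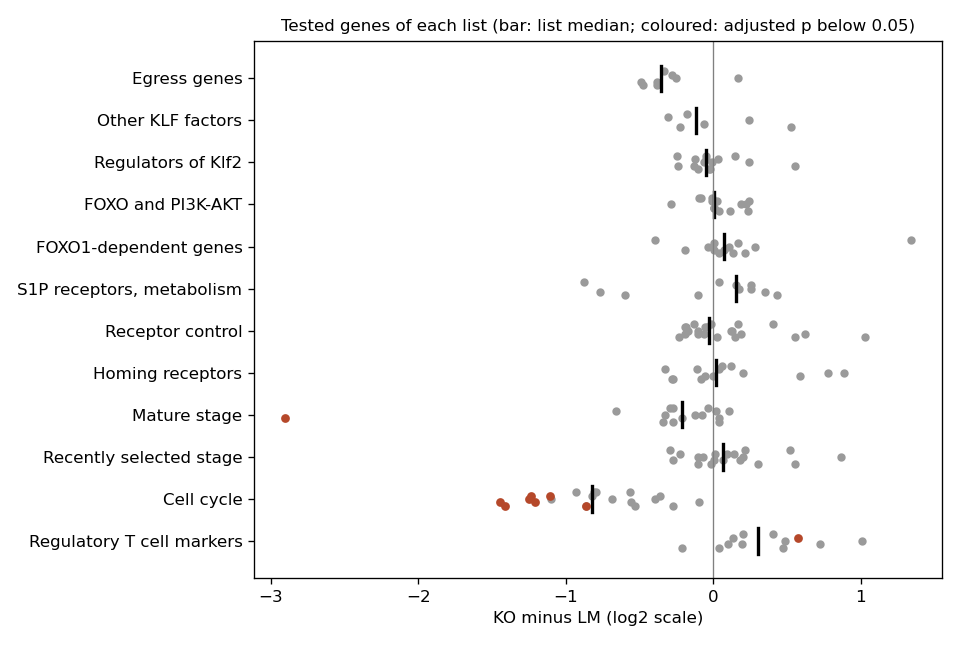
KO minus LM difference on the log2 scale (x axis) of each tested gene of the 8 egress genes and 11 other lists (rows); vertical bars are list medians and coloured points passed the threshold. The egress genes have a median of -0.36 and no called gene, the cell cycle list a median of -0.82 with 7 called genes, and the regulatory T cell markers a median of 0.30 with 1.

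The genes with the profile most like that of Klf2 were sought by Euclidean distance between log2 values centred on each gene's mean, over the 4 arrays. Sbsn, Jagn1 and Emp3 were nearest, at 0.03, 0.03 and 0.04, and differed by -0.49, -0.45 and -0.47 (limma adjusted p = 0.690, 0.599 and 0.427). For S1pr1 the nearest were Zfp869, Tmem154 and Slc35a3, at 0.06, 0.07 and 0.07, with differences of -0.42, -0.40 and -0.41. With 4 arrays and 11255 genes, close profiles are a description only.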

How the data were processed

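RNA of sorted CD4 single-positive thymocytes, extracted with Trizol and amplified with the WT-Ovation Pico system per the labels' protocols, was hybridised to 4 arrays. Per array, the authors deposited an intensity on a linear scale for each of 45101 probe sets, with values of 0.1 to 43129. The sources used here do not give the summary program or its background correction. The 64 control probe sets were not used. The platform annotation named 1 symbol for 34945 of the remaining 45037, several for 932 and none for 9160, and 34741 of the first kind matched RefSeq with 0 symbols updated. Intensities were taken as log2(value + 16), quantile normalized and tested for genotype alone in limma 3.58.1 (R 4.3.3), using lmFit and then eBayes with a trend on intensity. The fit borrowed 9.96 degrees of freedom, and the median standard error was 0.22. A gene or probe set was tested if above background on at least 2 arrays. Array number and signal over background limit precision. Tables and plots used Python 3.11.15, pandas 2.3.3 and matplotlib 3.10.9.

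The members and lists were chosen with earlier results of these data known. Genes named are the 8 members, Cul3, the 3 nearest profiles to Klf2 and S1pr1, and the 3 smallest p-values and every called gene of each list, marker lists aside; others were chosen after their values were seen. The lists share members (Cd69, Itgb7 and others), so they are not independent. Alternatives were other filters, normalizations, pseudocounts (1 and 64) and variance models, probe set means, the replicate number as a block and each array left out.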

Additional observations from a re-analysis of the deposited data

How the results depend on the processing

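Of the 8 genes, each kept its direction and its side of the threshold in every alternative but 1, the fit without LM replicate 2, where Ccr7 passed (111 of 112 values). The count of the 8 past the threshold was 0 to 1 and their median -0.45 to -0.23 with 1 array left out. Genes past the threshold numbered 31, against 81 with median centring, 0 without the filter on dim genes (1247 at an unadjusted p under 0.05 in limma), 0 without the trend (922) and 40 to 97 with 1 array left out. Probe sets past it numbered 50, against 77 when required above background on all 4 arrays, 98 with median centring, 2 without the filter, 0 without the trend (1679 at an unadjusted p under 0.05 in limma) and 121 to 254 with 1 array left out. Without the filter 18193 genes were tested, the fit borrowed 5.23 degrees of freedom and the median standard error was 0.31. The cause of these shifts in the counts was not tested. Fits without an LM array had an infinite prior. Every fit with 1 array left out, KO or LM, assumes that the lone array varies like the other group.

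Signs turned for some probe sets that did not pass. Klf6 1459718_x_at differed by -0.02, by 0.012 with median centring, 0.062 without normalization and -0.29 to 0.26 with 1 array left out. With 1 array left out, Klf6 1447448_s_at ran from -0.30 to 0.49, Klf13 1432543_a_at from -0.38 to 0.10, Foxo1 1416981_at from -0.38 to 0.15 and Foxo1 1456529_at from -0.82 to 0.086. Klf11 ran from -0.37 to 0.015, Pik3ip1 from -0.073 to 0.56 and Cul3 from -0.053 to 0.032, with Cul3 at 0.041 by probe set means. Of the other 35 genes, 450 of 486 values kept direction and call, 22 lost a call, 10 gained 1 and 4 reversed.

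The sources used here do not say whether replicate numbers pair the samples. Over the genes tested, same-numbered arrays deviated from their group means with a correlation of -0.02. A single value over all genes cannot show whether some of them shifted together by replicate number, so pairing remains unknown. With the replicate number as a block, 43 genes and 69 probe sets passed, 0 of the 8 members did, and their median was -0.36.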

Other observations

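Cxcr4 differed more between replicates than between genotypes, and it and the 3 genes beside it here were chosen after their values were seen. Cxcr4, the receptor that holds thymocytes in the cortex, read 4108.4 and 8830.0 on KO replicates 1 and 2 and 4118.5 and 7689.5 on LM replicates 1 and 2. The ratio of replicate 1 to replicate 2 was 0.465 for KO and 0.536 for LM. Cd69 had the same order, with ratios of 0.598 for KO and 0.818 for LM. S1pr1 had the opposite order, at 1.67 for KO and 1.25 for LM, as did Foxo1, at 1.51 and 1.19. The cause was not tested.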
